A study of Homo sapiens with 3 samples.

Results

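The suppressor of cytokine signalling (SOCS) family has 8 members in human, CISH and SOCS1 to SOCS7, and the rows with these names on the main chromosomes were taken from 3 deposited gene tables. All 8 members were found, each with 1 row, among 39320 gene rows shared by the tables. SOCS7 has another row on an alternative reference sequence, which was at 0 TPM in all 3 libraries and was not used. Polyadenylated RNA was sequenced from cells labelled wild-type HepG2, an established line of human liver cancer cells, in 3 libraries called replicates 1 to 3. There was 1 condition, with no control or treated group, and the labels do not say whether the libraries came from separate cultures, so the spread between them may be technical. The libraries carry the HepG2 label, but their hepatocyte markers went against it. All 16 genes of a hepatocyte marker list were below 1 TPM (a level scaled for gene length and for the library) in every library, and 11 of them, SERPINA1, ALB and the apolipoprotein gene APOB among them, stood at 0. All 10 housekeeping genes of another list reached 1 TPM in every library, so the values below hold for the libraries labelled HepG2. In bulk RNA, fewer cells that express a gene and less RNA per cell cannot be told apart.

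SOCS proteins are feedback inhibitors of cytokine signalling. A cytokine receptor activates Janus kinases (JAK), which phosphorylate STAT transcription factors, and STATs in turn switch on CISH and several SOCS genes. Each member has an SH2 domain, which binds phosphorylated tyrosine on a receptor or kinase, and a C-terminal SOCS box, which recruits elongins and a cullin to form a ubiquitin ligase. CISH and SOCS1 to SOCS3 are short proteins best known for limiting cytokine and growth hormone signals, while SOCS4 to SOCS7 carry a long N-terminal region and are linked to receptor tyrosine kinases. In liver cells, SOCS3 limits the acute-phase response to interleukin 6, and SOCS2 limits growth hormone. SOCS2 matters to this study because its mRNA is a known target of METTL3, the enzyme that writes N6-methyladenosine (m6A) on mRNA.

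The start region of CISH carries the sequence to which STAT factors bind, TTCNNNGAA, where N is any base. The pattern reads the same on both strands, and it was searched in 300-base windows from RefSeq (GRCh38.p14), which run from 250 bases before to 50 bases after an annotated start. CISH had 4 matches, which begin 241, 230, 129 and 112 bases before its RefSeq start at 50611774 on the minus strand of chromosome 3. Of 35116 windows of all genes, 7.66% held at least 1 match and 0.0199%, or 7 windows, held 4 or more. The matches lie in close pairs, shown here 5′ to 3′ on the CISH strand with each match in capitals. No STAT binding was measured here, so a match does not say that a site is bound. The upstream pair lies at chr3:50611991-50612020 and the downstream pair at chr3:50611876-50611905.
CISH upstream pair: ccgttTTCCTGGAAagTTCTTGGAAatctg
CISH downstream pair: ggTTCTAGGAAgacgctgcTTCCGGGAAgg
The windows of SOCS1, SOCS4 and SOCS6 and both windows of SOCS3 held 0 matches, which says only that these letters are not in those windows. The deposited SOCS3 row starts at 78360079 on the minus strand of chromosome 17, which lies in neither SOCS3 window. The region before that start was therefore not searched. SOCS2, SOCS5 and SOCS7 have no window in the table. The 6 windows of the 5 members were rich in G and C, at 70.3% in CISH, 70.3% in SOCS4, 74.0% in SOCS1, 64.0% and 70.7% in SOCS3 and 81.3% in SOCS6, against a median of 58.7% over all windows.

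The mRNA of SOCS2 was read for GGACT, a common form of the sequence in which m6A is written, because SOCS2 is the member measured by RT–qPCR in this study. In the main annotated transcript of GENCODE v44 (the Ensembl canonical transcript), SOCS2 had 4 matches on the coding strand. There were 2 in the coding region, at chr12:93574892-93574912 and at chr12:93575112-93575132 on the plus strand, and 0 in the 3′ untranslated region. The second begins 59 nt before the end of the stop codon. Both are shown with the match in capitals.
SOCS2 first coding match: ttcagattGGACTctatcata
SOCS2 second coding match: ccatctggGGACTgcctttac
No methylation was measured here, so a match does not say that a site is methylated.

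All 8 members had mRNA in the libraries labelled HepG2, and every one reached at least 1 TPM in all 3 libraries. Over all gene rows 33.8% reached this level, and over the 18739 protein-coding genes 59.5% did. The levels were moderate. The mean TPM of the 8 members had a median of 8.45, below the median of 19.5 over the 11312 protein-coding genes that were expressed, which here means a mean TPM of 1 or more. Of the 8, SOCS2, SOCS3 and SOCS4 had at least 10 TPM in every library. The summed level of the family was 73.7, 70.0 and 66.2 TPM in replicates 1, 2 and 3, a mean of 70.0 ± 3.74 TPM (SD, n = 3). The plot of member levels by library shows this order.

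**Figure D1:**
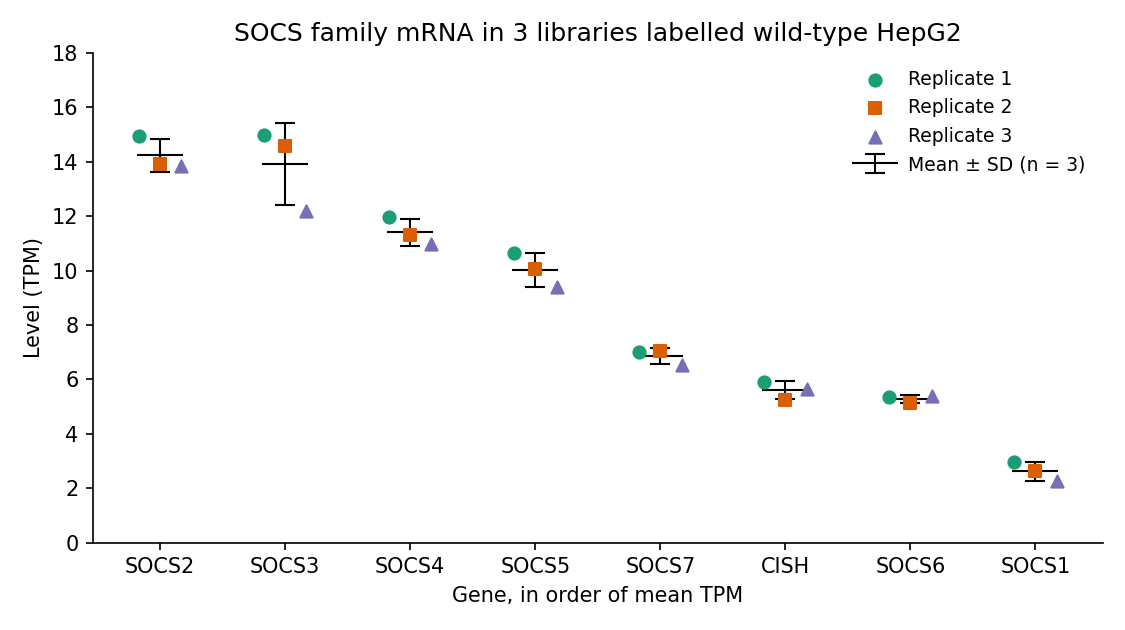
Level of each SOCS family member in TPM (vertical axis, linear from 0) in replicates 1 to 3, shown as points, with the mean and SD of the 3 libraries as a bar. SOCS2 and SOCS3 share the top, with 14.2 and 13.9 TPM on average, and SOCS1 is lowest with 2.62 TPM.

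The 4 short members, which cytokines induce, made up 52.6%, 52.0% and 51.2% of the summed family TPM in replicates 1, 2 and 3, or 52.0% ± 0.678 (SD, n = 3). They did not form a group by level, because they included the 2 highest members and the lowest. SOCS2 and SOCS3 alone held 40.2% ± 0.784 (SD, n = 3) of the summed TPM.

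SOCS2, the inhibitor of growth hormone signalling, spans chr12:93569822-93626236 on the plus strand in the deposited tables. Its level was 14.9, 13.9 and 13.8 TPM in replicates 1, 2 and 3, a mean of 14.2 ± 0.608 TPM (SD, n = 3). Replicate 1 was highest and the other two were nearly equal. Its FPKM, which is scaled for gene length and the number of fragments, was 7.05, 6.66 and 6.64. The gene stood above 48.0% of the 13753 expressed genes of any type, close to their middle.

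SOCS3, which blocks JAK kinases at the interleukin 6 receptor, spans chr17:78356777-78360079 on the minus strand. Its level was 14.98, 14.6 and 12.2 TPM in replicates 1, 2 and 3, a mean of 13.9 ± 1.504 TPM (SD, n = 3). Replicate 3 stood below the other two. Its FPKM was 7.07, 6.98 and 5.85 in the same libraries.

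CISH, the first member of the family to be described and a target of STAT5, spans chr3:50606454-50611831 on the minus strand. Its level was 5.91, 5.26 and 5.63 TPM in replicates 1, 2 and 3, a mean of 5.60 ± 0.327 TPM (SD, n = 3). Replicate 2 was lowest, and the FPKM of 2.79, 2.51 and 2.70 followed the same order. CISH, with 4 matches to the STAT sequence before its RefSeq start, was sixth of the 8 members by mean deposited TPM. SOCS3 and SOCS4, whose windows held 0 matches, were higher, as were SOCS2, SOCS5 and SOCS7, which had no window. By coverage, the mean read depth over a gene, CISH was above SOCS5, with means of 16.9 and 4.37. A link between matches and level was not tested.

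SOCS1, a direct inhibitor of JAK kinases in interferon signalling, spans chr16:11254417-11256182 on the minus strand. It had the lowest level of the family, with 2.95, 2.63 and 2.26 TPM in replicates 1, 2 and 3 and a mean of 2.62 ± 0.343 TPM (SD, n = 3). All 3 libraries differed from each other by similar steps. Its FPKM was 1.39, 1.26 and 1.09. It exceeded 13.98% of the expressed genes.

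SOCS4, which has been linked to control of the epidermal growth factor receptor, spans chr14:55027126-55049489 on the plus strand. Its level was 12.0, 11.3 and 11.0 TPM in replicates 1, 2 and 3, a mean of 11.4 ± 0.497 TPM (SD, n = 3). Its FPKM was 5.65, 5.40 and 5.27. SOCS4 was the highest of the 4 long members.

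SOCS5, another member linked to the epidermal growth factor receptor, spans chr2:46698960-46763129 on the plus strand. Its level was 10.6, 10.1 and 9.40 TPM in replicates 1, 2 and 3, a mean of 10.04 ± 0.621 TPM (SD, n = 3). Its FPKM was 5.02, 4.82 and 4.50. Replicate 1 was highest and replicate 3 lowest on both scales.

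SOCS7, which binds adaptor proteins such as NCK1, spans chr17:38351844-38405593 on the plus strand. Its level was 7.0002, 7.06 and 6.53 TPM in replicates 1, 2 and 3, a mean of 6.86 ± 0.293 TPM (SD, n = 3), and its FPKM was 3.31, 3.38 and 3.13. SOCS6, which binds the receptor tyrosine kinase KIT, spans chr18:70289045-70330199 on the plus strand. Its level was 5.36, 5.12 and 5.39 TPM in the same libraries, a mean of 5.29 ± 0.152 TPM (SD, n = 3), with 2.53, 2.45 and 2.59 FPKM. SOCS7 was above SOCS6 in every library.

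Neighbours in the order of mean TPM were compared library by library, as a log2 ratio after 1 was added to each TPM. SOCS2 and SOCS3 could not be ordered. Their log2 ratio was -0.0038, -0.06 and 0.17 in replicates 1, 2 and 3, so SOCS2 was higher in 1 of 3 libraries, and the mean of 0.03 ± 0.12 (SD, n = 3) was smaller than its spread. In the other 6 pairs the gene with the higher mean was higher in 3 of 3 libraries and the mean log2 ratio exceeded its SD. The pairs were ordered by the means of these same 3 libraries, so this is not independent support for the order. The largest step, 0.80 ± 0.15 (SD, n = 3), separated SOCS6 from SOCS1, followed by 0.49 ± 0.05 between SOCS5 and SOCS7. Both steps turned direction with coverage (the mean read depth over a gene) in place of TPM, to -1.61 for SOCS6 to SOCS1 and -2.91 for SOCS5 to SOCS7. The steps were 0.26 ± 0.11 from SOCS3 to SOCS4, 0.25 ± 0.10 from SOCS7 to CISH and 0.17 ± 0.03 from SOCS4 to SOCS5 (SD, n = 3). CISH and SOCS6 were the closest of these 6 pairs, with 0.07 ± 0.04 (SD, n = 3), and their values overlapped across libraries. By an exact permutation test that flips signs (two-sided, n = 3), p was 1 for SOCS2 and SOCS3 and 0.25 for each of the other 6 pairs. The adjusted p over the 7 pairs (exact test, Benjamini-Hochberg) was 0.292 for those 6, and 0.25 is the smallest p that 3 libraries allow, so no pair could pass a threshold of 0.05.

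**Figure D2:**
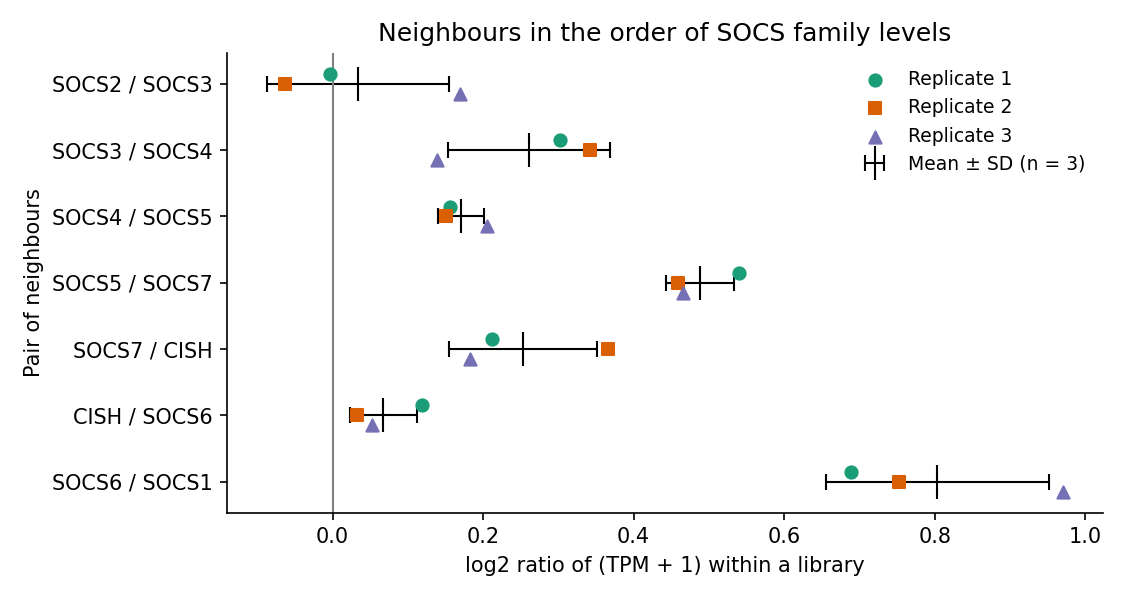
Log2 ratio of (TPM + 1) between neighbours in the order of SOCS family levels (horizontal axis), with 1 point per library and a bar for the mean and SD of 3 libraries. SOCS2 / SOCS3 spans 0, the other 6 pairs lie above 0 in every library, and SOCS6 / SOCS1 is farthest from 0 at 0.80, while with coverage in place of TPM (not drawn) SOCS6 / SOCS1 and SOCS5 / SOCS7 turn to -1.61 and -2.91.

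By the median range, the members varied between libraries about as much as all expressed genes. The range of log2(TPM + 1) over the 3 libraries lay between 0.06 in SOCS6 and 0.28 in SOCS3 and SOCS1, and its median over the members was 0.13, against 0.15 over all expressed genes. Of the 8 members, 0 had a range above 0.5, and 4.17% of all expressed genes did. The coefficient of variation was highest in SOCS1 at 13.1% and SOCS3 at 10.8%, and the median over all those genes was 6.12%. Replicate 1 was the highest library in 6 of 8 members, and in 58.1% of all expressed genes. Replicate 3 was the lowest in 6 of 8, and in 48.8% of those genes.

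Coverage put the members in another order. It carries no scaling for the size of a library, and the highest ratio of coverage to FPKM, a relative measure of depth, was 13.3, 12.8 and 11.5 in replicates 1, 2 and 3. SOCS3 had the deepest coverage, with 93.9, 89.6 and 67.1 in replicates 1, 2 and 3. SOCS4 followed with 73.2, 67.7 and 58.9, and SOCS7 with 42.0, 41.5 and 34.3. Coverage of SOCS2 was 33.9, 29.8 and 27.9, below that of SOCS7, although its TPM was higher in every library. CISH had 17.7, 17.4 and 15.4, and SOCS1 had 18.5, 16.2 and 12.4. Coverage was lowest in SOCS5, with 4.96, 4.31 and 3.83, and in SOCS6, with 4.69, 4.40 and 4.13, both below SOCS1 in every library.

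The size of this disagreement can be given per gene, as the ratio of coverage to FPKM relative to the highest ratio in the library. In replicates 1, 2 and 3, SOCS1 and SOCS3 were at the highest ratio, SOCS4 was at 0.976, 0.977 and 0.976, and SOCS7 was at 0.956, 0.957 and 0.956. CISH was at 0.478, 0.541 and 0.499, and SOCS2 at 0.362, 0.348 and 0.366. SOCS6 was at 0.139, 0.140 and 0.139, and SOCS5 at 0.0744, 0.0697 and 0.0742. The 4 members above 0.9 in every library compare with 39.4% of expressed genes, and the 2 members below 0.2 with 10.1%. SOCS5 and SOCS6 thus stood in the tail of this measure, and by nearly the same factor in each library.

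When TPM was recomputed from coverage alone, by dividing coverage by the highest ratio and rescaling, SOCS5 went from 10.04 to 0.730 ± 0.0528 TPM and SOCS6 from 5.29 to 0.738 ± 0.0194 TPM (SD, n = 3). The deposited TPM of SOCS5 was 13.7 times, and that of SOCS6 7.17 times, the level that coverage gives. Because the highest ratio is the divisor, a gene above 1 FPKM can only keep or lose level on this scale. The values were not brought back to a fixed total, so they are an index in TPM units. SOCS2 moved to 5.11 ± 0.279 TPM and CISH to 2.82 ± 0.0174 TPM (SD, n = 3). SOCS3 and SOCS1 kept their values by construction, being at the highest ratio, and SOCS4 and SOCS7 moved little, to 11.1 and 6.56 TPM. On this scale 6 of 8 members reached at least 1 TPM in every library, as did 54.9% of protein-coding genes. SOCS3 then led alone, ahead of SOCS4, SOCS7 and SOCS2. RefSeq lists 18 transcripts for SOCS2, 10 for SOCS6, 7 for SOCS7, 4 for SOCS4, 3 each for SOCS3 and CISH, 2 for SOCS5 and 1 for SOCS1. The tables hold 1 value per gene, and the part of transcript structure in the gap between the scales was not tested.

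**Figure D3:**
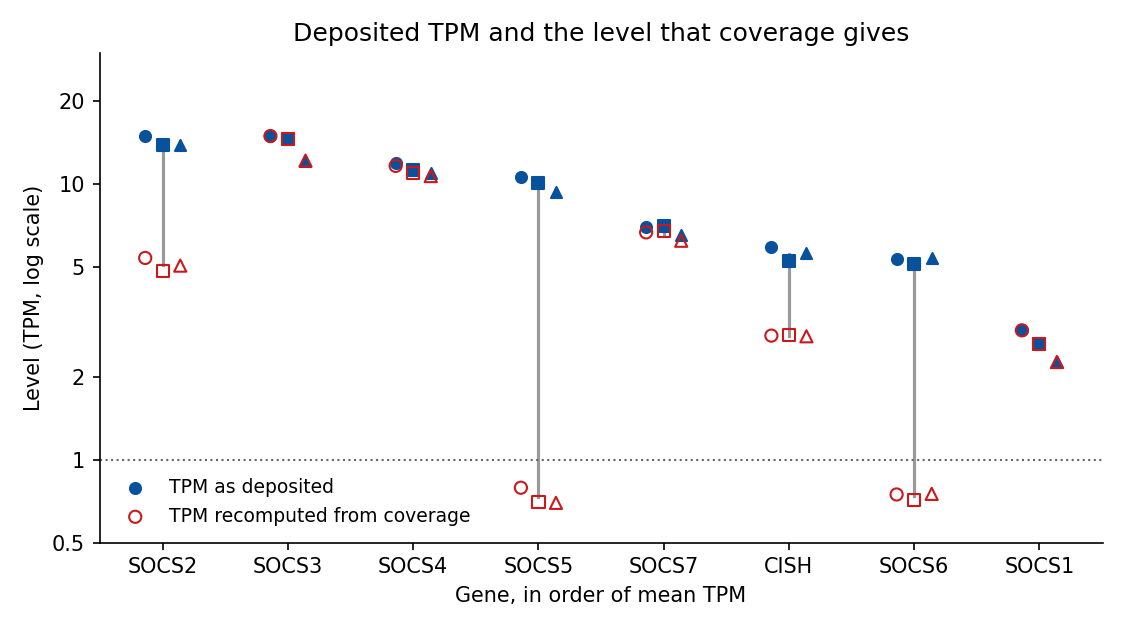
Deposited TPM (filled) and TPM recomputed from coverage (open) of each member on a log axis, with circles, squares and triangles for replicates 1, 2 and 3 and a dotted line at 1 TPM. The scales coincide for SOCS3 and SOCS1, while SOCS5 and SOCS6 fall from 10.04 and 5.29 TPM to 0.730 and 0.738 TPM.

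Several members lie beside or over another gene. By its deposited row, SOCS4 starts at 55027126, 19 bp from WDHD1, a replication factor on the other strand with 9.50 ± 0.330 TPM (SD, n = 3). Its RefSeq start is 55027236. The deposited row of CISH starts at 50611831, 30 bp from MAPKAPK3, a kinase gene read in the opposite direction with 73.0 ± 3.58 TPM (SD, n = 3). The RefSeq start of CISH, from which the TTCNNNGAA matches were counted, is 50611774. All 4 matches lie within the deposited row of MAPKAPK3. By the deposited rows SOCS3 lies 368 bp from LOC101928674, which had 2.59 ± 0.315 TPM (SD, n = 3) and a mean of 1.03 TPM by coverage. The RefSeq start of SOCS3, at 78360925, lies within the row of LOC101928674, which begins at 78360448. With that start the genes overlap. By the deposited rows, these 3 of 8 members (37.5%) share a start region with a gene on the other strand within 500 bp, as did 18.0% of expressed protein-coding genes.

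SOCS2 overlaps SOCS2-AS1, a noncoding RNA on the other strand, over 1577 bp. SOCS2-AS1 had 2.11, 3.14 and 4.26 TPM in replicates 1, 2 and 3, and SOCS2 had 14.9, 13.9 and 13.8 TPM. A relation between them was not tested, and 3 libraries of 1 condition cannot show one. SOCS1 lies wholly within LOC105371082, which runs on the other strand and had 6.45, 6.22 and 5.57 TPM in the same libraries. By deposited TPM that was above SOCS1 in every library, but TPM recomputed from coverage put it at a mean of 0.122, below the 2.62 of SOCS1. The strand setting of the counting is not given in the sources used here, so reads of overlapping genes cannot be told apart. By the deposited rows, overlap with a gene on the other strand was found for 2 of 8 members (25%) and for 40.7% of expressed protein-coding genes. The RefSeq start of SOCS3 would add SOCS3 to these members.

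The mRNAs of the family differ in length and in the short sequences they carry. In the canonical transcripts of GENCODE v44, the coding regions of the 4 short members run from 594 nt in SOCS2 to 774 nt in CISH, and those of the other 4 from 1320 nt in SOCS4 to 1935 nt in SOCS7, without the stop codon. The 3′ untranslated region was 426 nt in SOCS1 and 6111 nt in SOCS7, the extremes of the family, against a median of 1019 nt over 19701 transcripts. GGACT was most frequent in CISH, with 5 matches or 2.48 per kb, and SOCS1 had 0. It was found at 1.83 per kb in SOCS3, 1.68 in SOCS2 and 1.68 in SOCS5, and the median over all transcripts was 0.923 per kb. SOCS4 was the other member below that median, with 0.724 per kb. ATTTA, the core of AU-rich elements that mark short-lived mRNAs, occurred in the 3′ untranslated region of 7 of 8 members, with SOCS1 as the exception, and in that of 66.1% of all transcripts. Its density was highest in SOCS6, with 16 matches or 4.08 per kb, and the median over 18175 transcripts with at least 100 nt of this region was 1.67 per kb.

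The genes around the family were described by role. Of 152 genes of the pathway on 9 lists, 90 (59.2%) reached 1 TPM in every library, close to the 59.5% of protein-coding genes given above. For the counts at 0 below, 40.7% of all gene rows, coding and noncoding, were at 0 in all 3 libraries. The lists hold protein-coding genes, and the share at 0 among all protein-coding genes was not computed. The plot of the family and its pathway by role shows how the lists differ.

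The ligands were mostly below 1 TPM in these cells. Of 25 cytokines that act through JAK kinases, 3 reached 1 TPM in every library and 11 were listed at 0 in all 3. The 3 were CLCF1 with 14.99 ± 0.987 TPM, LIF, the leukaemia inhibitory factor, with 11.5 ± 0.519 TPM and IL15 with 3.94 ± 0.129 TPM (SD, n = 3). IL6 itself, named after its values were seen, was below 1 TPM, at 0.25, 0.19 and 0.30 in replicates 1, 2 and 3.

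The receptors were uneven. Of 31 cytokine receptor genes, 20 reached 1 TPM in every library, or 18 by coverage, led by LIFR, the receptor for LIF, with 98.8 ± 10.03 TPM. CSF2RA had 53.3 ± 2.05 TPM and IL13RA1 had 31.7 ± 1.35 TPM (SD, n = 3). By coverage CSF2RA had a mean of 30.7 TPM and IL13RA1 7.10 TPM, so IL13RA1 was among the 3 highest receptors by deposited TPM alone. The receptor chains of interleukin 6, IL6R with 8.50 ± 0.264 TPM and IL6ST with 29.8 ± 3.43 TPM (SD, n = 3), were also present, and IL6R had a mean of 4.56 TPM by coverage. GHR and PRLR, the receptors of growth hormone and prolactin whose signals CISH and SOCS2 limit, were listed at 0 in all 3 libraries. These 4 genes were named after their values were seen.

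All 4 Janus kinases reached 1 TPM in every library by deposited TPM, and 3 did by coverage. JAK1 had 73.4 ± 4.61 TPM, TYK2 21.6 ± 0.133 TPM, JAK2 5.57 ± 0.446 TPM and JAK3 1.09 ± 0.106 TPM (SD, n = 3). By coverage TYK2, JAK2 and JAK3 had means of 13.9, 3.63 and 0.629 TPM. STAT3, the factor of interleukin 6, had 67.0 ± 1.83 TPM and STAT6, the factor of interleukin 4, had 66.5 ± 1.56 TPM (SD, n = 3). STAT5B had 58.5 ± 1.01 TPM and STAT5A 49.8 ± 1.67 TPM, both of which act on CISH. STAT2 had 8.43 ± 0.621 TPM and STAT4 0.236 ± 0.0242 TPM (SD, n = 3). By coverage STAT5B and STAT2 had means of 37.6 and 5.33 TPM. STAT3, STAT5A, STAT5B and STAT6 were each above every SOCS family member in all 3 libraries.

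The partners with which the SOCS box forms a ubiquitin ligase were all present, with 9 of 9 genes at or above 1 TPM in every library. The elongins ELOB and ELOC, which bind the SOCS box directly, had 402 ± 19.6 and 76.4 ± 2.20 TPM (SD, n = 3). CUL5, the cullin of these complexes, had 10.7 ± 0.918 TPM, near the level of SOCS4 and SOCS5, and its RING partner RNF7 had 45.9 ± 0.474 TPM (SD, n = 3). CUL2 had 27.95 ± 1.27 TPM and RBX1 had 72.9 ± 4.32 TPM. The ubiquitin-like protein NEDD8, which activates cullins, had 238 ± 17.5 TPM, its conjugating enzyme UBE2F 10.7 ± 0.0684 TPM and the ligase ARIH2 58.5 ± 2.53 TPM (SD, n = 3). By deposited TPM CUL5 and UBE2F did not differ beyond their spread, but by coverage CUL5 was higher, with a mean of 9.50 TPM. On that scale CUL5 stood below SOCS4, at 11.1 TPM, and far above SOCS5, at 0.730 TPM. By coverage the means were lower for ARIH2, at 8.66 TPM, UBE2F, at 3.51, RNF7, at 24.998, and ELOC, at 44.1, and all 9 genes still reached 1 TPM in every library.

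Other proteins with a SOCS box compete for the same elongins. Of 28 such genes, 15 reached 1 TPM in every library and 5 were listed at 0 in all 3. The highest were WSB2 with 44.2 ± 4.06 TPM, SPSB3 with 34.6 ± 1.49 TPM and ASB6 with 33.1 ± 3.13 TPM (SD, n = 3), each above all 8 SOCS family members.

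Among 10 tyrosine kinase receptors and adaptors to which SOCS proteins bind, 8 reached 1 TPM in every library, or 7 by coverage. EGFR had 97.6 ± 6.80 TPM, GRB2 79.1 ± 1.34 TPM and IGF1R 46.3 ± 6.77 TPM (SD, n = 3). By coverage EGFR and IGF1R also fell, to means of 21.1 and 6.85 TPM. Of 12 other inhibitors of the pathway, 10 reached 1 TPM in every library, or 9 by coverage. The phosphatases PTPN11, PTPN1 and PTPN2 led this list with 92.2 ± 6.27, 55.0 ± 1.64 and 24.7 ± 1.32 TPM (SD, n = 3), while PTPN2 had a mean of 2.34 TPM by coverage.

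Of 26 genes that STAT factors can induce, 15 reached 1 TPM in every library and 6 were listed at 0 in all 3. IFI30, a thiol reductase induced by interferon gamma, had 271 ± 0.713 TPM. MCL1, an inhibitor of apoptosis, had 114 ± 4.80 TPM, and CCND1, a cyclin of the G1 phase, had 111 ± 4.51 TPM (SD, n = 3). The fibrinogen genes FGA, FGB and FGG, acute-phase genes of hepatocytes that are also on the marker list, were among those at 0. Whether these genes depend on STAT factors in these cells was not tested.

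**Figure D4:**
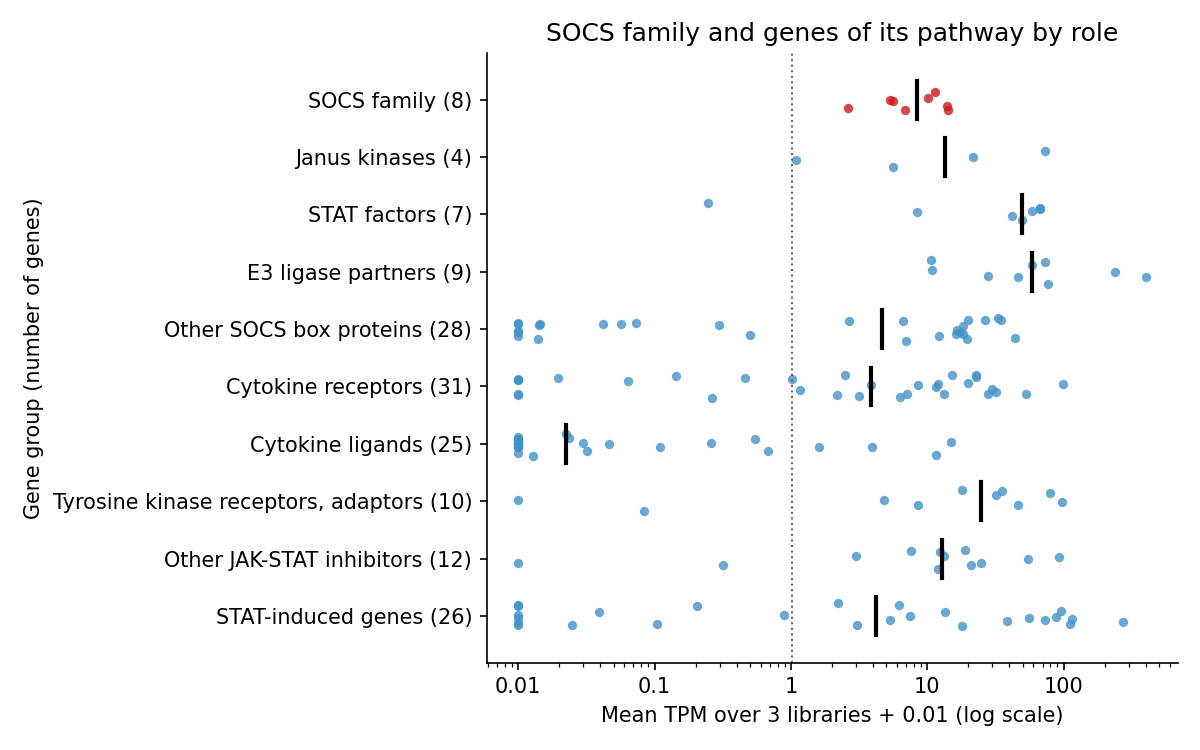
Mean TPM over 3 libraries, with 0.01 added so that genes at 0 can be drawn, on a log axis for the SOCS family (red) and 9 lists of its pathway (blue), with 1 point per gene, a bar at the median and a dotted line at 1 TPM. The 8 members lie between 2.62 and 14.2 TPM, below most STAT genes and ligase partners, and most cytokine ligands lie below 1 TPM.

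The 3 genes whose levels were closest to those of SOCS2, by Euclidean distance of log2(TPM + 1) over the 3 libraries, were the pseudogene DSTNP2, SNRNP48 and ZNF587, at distances of 0.0103, 0.0123 and 0.0201. With 3 libraries of 1 condition, this likeness is one of level.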

How the data were processed

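RNA-seq of 3 libraries of 1 group was analysed. Per the submitters' processing notes and the paper's methods, paired-end reads were filtered with FastQC 0.11.8 and Trim Galore 0.6.2 and mapped to GRCh38 with STAR 2.6.1a; StringTie is named with no version. Annotation and strand setting are not given in the sources used here. Coverage (mean read depth), FPKM and TPM were computed and deposited by the authors for each gene and library. No counts were used, so the number of reads is unknown and errors are the SD over 3 libraries.

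Rows on the main chromosomes were joined by name, strand and coordinates. For CSF2RA and CRLF2, with 2 rows each, the row with the higher mean was used. Protein-coding genes were those so marked in RefSeq. The order was tested by exact permutation of signs over the 3 libraries, two-sided. From each list without all its genes named, the 3 highest were named. A gene of the pathway lists is not reported here. The members and lists were chosen with earlier results of these data known. The range calculation was run on simulated data, in which all 200 of 200 changed genes among 13753 were recovered and 0 others called. In the 3 libraries 4.17% of the expressed genes had a range above 0.5. Recovery in data with that spread was not tested. Promoter windows come from RefSeq (GRCh38.p14) and transcripts from GENCODE v44. Alternatives were each library left out, FPKM, coverage, other limits, pseudocount and scalings. Python 3.11.15, numpy 2.4.6, pandas 2.3.3 and matplotlib 3.10.9 were used.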

Additional observations from a re-analysis of the deposited data

How the results depend on the processing

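The recomputation of TPM from coverage was chosen after the data were seen. No paired analysis was possible because only 1 condition was sequenced. Scaling without mitochondrially encoded genes, which raises all other genes by about 1.25 in every library, gave means of 17.8 TPM for SOCS2, 17.5 for SOCS3, 14.3 for SOCS4, 12.6 for SOCS5, 8.60 for SOCS7, 7.02 for CISH, 6.64 for SOCS6 and 3.28 for SOCS1. TPM recomputed from coverage gave 5.11 for SOCS2, 0.730 for SOCS5, 6.56 for SOCS7, 2.82 for CISH and 0.738 for SOCS6, and the cause was not tested. Members in every library numbered 3 with a limit of 10 TPM, in place of 8. By coverage, the share of CISH and SOCS1 to SOCS3 was 56.0% in place of 52.0%, and the log2 ratio reversed to -1.41 for SOCS2 to SOCS3, -2.91 for SOCS5 to SOCS7 and -1.61 for SOCS6 to SOCS1. Over the sets that leave out 1 replicate, SOCS2 to SOCS3 gave log2 ratios from -0.034 to 0.083, and it was negative without replicate 3. The other 6 ratios kept their direction in these sets, with FPKM and with a pseudocount of 0.1. Median-of-ratios scaling moved no member's mean by 1 SD, and leaving out 1 of 3 values cannot do so. The unknown number of reads limits every gene listed at 0.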
